A study of Mus musculus with 14 samples.

Results

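The genes described here are 34 genes of the cell division cycle and DNA replication, named in a list, and they were read from expression arrays of mouse CD4+ T cells grown with or without acetate. The list holds 8 genes that license replication origins, 5 that supply nucleotides or clamp the polymerase to DNA, 3 that control the step from G1 to S phase, 9 that drive G2 and mitosis, 5 of the spindle checkpoint and kinetochore, and 4 further spindle, chromosome and proliferation genes. A member is represented by a probe set whose platform symbol is exactly the member's name, and where several exist by the one with the highest mean over the 14 arrays. Of the 34 members 33 had such a probe set, and all 33 were tested, among 10916 genes tested of 18193 with a probe set. The signal of Ccnb1, cyclin B1, was not analysed here.

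A T cell that divides passes through ordered phases. Before S phase the minichromosome maintenance (MCM) helicase is loaded at origins by Cdc6 and Cdt1, cyclin E and E2F factors start S phase, and ribonucleotide reductase and thymidine kinase make the DNA precursors. Cyclin A and cyclin B with Cdk1 then drive mitosis, the Aurora kinases and Plk1 build the spindle, and the Bub1 and Ttk checkpoint holds the cell until every chromosome is attached. Most of the G2 and mitosis genes are transcribed late in the cycle and most of the licensing and nucleotide genes early, and activated T cells are among the fastest dividing cells of the adult body.

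The cells came from the spleen and from peripheral and mesenteric nodes and were cultured in 3 sets of polarising conditions. Th17 cultures received hIL-2, hTGF-b1, mIL-6, mIL-1b, mIL-23, mIL-21 and mTNF-a with antibodies against mIL-4 and mIFN-gamma, Treg cultures hIL2 and hTGF-b1, and Th1 cultures hIL2, mIL-12 and an antibody against mIL4. Each set was grown without (control) or with acetate, a short chain fatty acid, at 10 mM, labelled C2. There were 3 arrays in each Th17 group and 2 in each Treg and Th1 group, 14 in all. Culture lasted 5 days by the protocols and 6 to 7 days by the design text, and the protocols of the Treg and Th1 C2 samples name acetone where the design text names sodium acetate. Strain, sex and age of the mice are not given in the labels, and nothing says that replicates came from separate animals or cultures, so a p-value here measures no more than the spread between these arrays, which can be technical. The comparisons ask whether acetate shifted the members within a subset, whether that shift differed between subsets, and how the untreated subsets differed.

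Values are normalised signals on the array's linear scale, and differences are on a log2(signal + 3) scale, written with their standard error. Each adjusted p comes from limma and was adjusted by Benjamini and Hochberg's method across the 10916 genes tested, and a gene is called at an adjusted p under 0.05. Among CD4 T cell markers 6 of 7 had a probe set, and their summed signal lay between 6022 and 12966 in every array. Il17a averaged 652 in Th17 control arrays against 8.73 in Th1 control arrays, Foxp3 332 in Treg control arrays against 12.9 in Th1 control arrays, and Tbx21 315 in Th1 control arrays against 54.1 in Th17 control arrays. Foxp3, the defining factor of Treg cells, averaged 59.1 in the Treg acetate arrays. The summed signal of 6 of 8 Th lineage markers was higher with acetate in each subset, without overlap. It was 1446 to 2644 in Th17 controls and 3960 to 7774 with acetate. In Treg arrays it was 1850 to 2138 and 2185 to 4431, and in Th1 arrays 1627 to 3916 and 9013 to 12525. Its brightest genes were Ifng (up to 11805) and Il17a (up to 5610). Its part in the members' differences was not tested. The arrays' trimmed means as deposited ranged from 53.2 to 116, and log2 values of arrays of one group correlated at 0.940 to 0.983. In bulk RNA, a smaller share of dividing cells and less of these RNAs in each cell cannot be told apart.

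Single arrays stood apart in these genes before any test. The highest value among all 14 arrays was in Th1 acetate replicate 2 for 14 members, in Th1 control replicate 2 for 9 and in Th17 acetate replicate 1 for 9, and for 1 member in Treg acetate replicate 2. The lowest value lay in a Th17 array for 30 of the 33 members. Results that rest on these arrays are given below with and without them.

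The promoter stretches of 5 members with mitotic or licensing roles are shown first. Whether their letters bear on the signals of the arrays was not tested. Each runs from 140 bases before to 20 bases after the RefSeq gene start (GRCm38.p6), 5′ to 3′ along the gene. Capitals mark 3 kinds of letters searched on both strands. The CHR element is TTTGAA or TTCGAA, the CCAAT box is CCAAT, and the E2F letters are TTTCCCGC, TTTGGCGC, TTTCGCGC or TTTGCCGC. Neighbouring matches can share letters, as at the first capitals of Mcm6. Cdk1 (chr10:69352893-69353052, minus strand) encodes the mitotic kinase, Bub1 (chr2:127831840-127831999, minus strand) a checkpoint kinase and Ccnb2 (chr9:70421535-70421694, minus strand) a mitotic cyclin. Mcm6 (chr1:128359686-128359845, minus strand) is a helicase subunit and Cdc6 (chr11:98908011-98908170, plus strand) loads the helicase.
Cdk1: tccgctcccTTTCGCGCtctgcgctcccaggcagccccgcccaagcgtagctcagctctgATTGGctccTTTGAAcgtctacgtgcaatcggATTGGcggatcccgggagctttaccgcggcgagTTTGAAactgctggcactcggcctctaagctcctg
Bub1: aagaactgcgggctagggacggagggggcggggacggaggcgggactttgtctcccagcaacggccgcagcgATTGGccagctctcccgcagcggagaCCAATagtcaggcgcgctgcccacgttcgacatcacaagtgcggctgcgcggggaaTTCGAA
Ccnb2: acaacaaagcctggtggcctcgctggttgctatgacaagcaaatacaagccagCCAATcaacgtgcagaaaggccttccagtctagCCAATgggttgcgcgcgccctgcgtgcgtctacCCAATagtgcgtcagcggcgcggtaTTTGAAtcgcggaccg
Mcm6: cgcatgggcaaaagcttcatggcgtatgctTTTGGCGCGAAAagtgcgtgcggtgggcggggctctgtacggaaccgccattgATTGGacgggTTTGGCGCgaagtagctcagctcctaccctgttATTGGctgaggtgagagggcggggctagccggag
Cdc6: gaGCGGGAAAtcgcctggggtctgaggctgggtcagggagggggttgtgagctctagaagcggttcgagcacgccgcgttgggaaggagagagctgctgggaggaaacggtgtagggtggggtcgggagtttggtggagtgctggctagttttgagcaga

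The 3 mitotic stretches held CHR letters, 2 of them in Cdk1 and 1 each in Bub1 and Ccnb2, together with CCAAT boxes, 2 each in Cdk1 and Bub1 and 3 in Ccnb2. The Cdk1 stretch also held 1 E2F match, and those of Bub1 and Ccnb2 held none. The Mcm6 stretch held 3 E2F matches and 2 CCAAT boxes and the Cdc6 stretch 1 E2F match, and neither held CHR letters. RefSeq's table held 30 of the 34 members in 31 windows of 300 bases, from 250 before to 50 after the start. Ccnb1, whose signal was not analysed, was among the 30 and is counted with the mitotic members. Among the mitotic and checkpoint members, CHR letters stood in 12 of 16 windows (75.0%), against 2 of 15 windows (13.3%) of the licensing, nucleotide and G1 to S members and 19.2% of all 32851 windows. E2F letters stood in 1 of 16 windows (6.25%) of the first set, in 6 of 15 of the second and in 2.26% of all windows. All 6 belonged to licensing members, Mcm6 and Cdc6 among them, and no window of a nucleotide or G1 to S member held a match. CCAAT stood in 14 of 16 (87.5%) and 9 of 15, against 37.4% of all windows. A match describes letters in a window and is neither a binding site nor a cause.

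**Figure D1:**
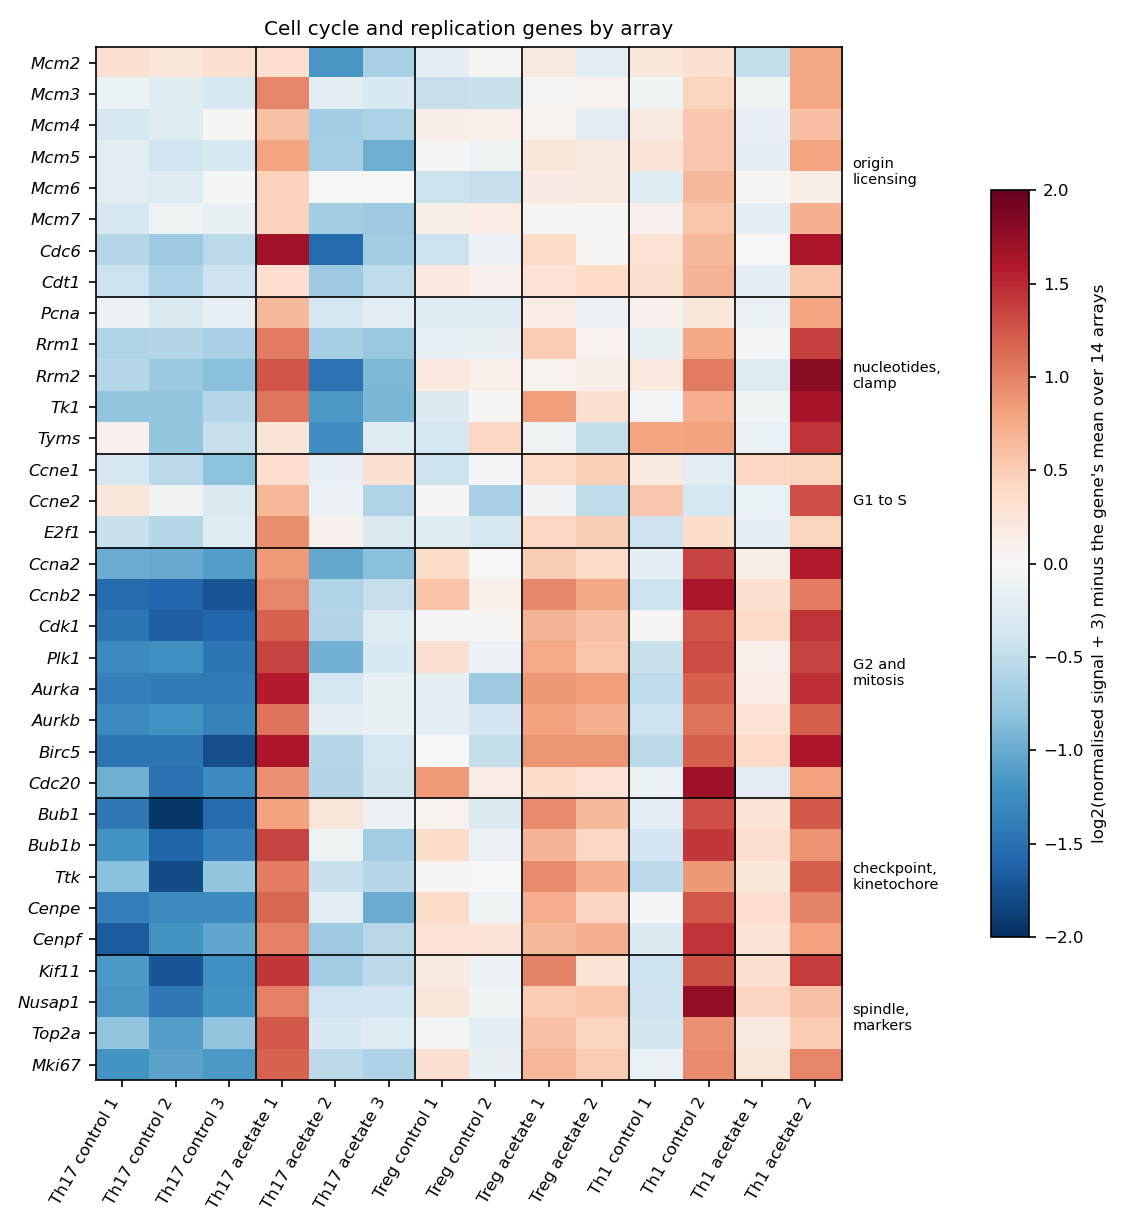
Heat map of the 33 members (rows, grouped by role) in the 14 arrays (columns, grouped by culture), coloured by log2(normalised signal + 3) minus the gene's mean over all arrays. Th17 control arrays are the bluest block in the lower, mitotic rows, and Th17 acetate replicate 1 and the replicates 2 of both Th1 groups are red in nearly every row.

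Acetate in the Th17 cultures was accompanied by higher signals of the mitotic machinery. Of 33 members 9 were called higher and 0 lower, where 11.7% of all genes tested were called higher and 8.66% lower, and 19 members had an unadjusted p under 0.05. The 9 were Bub1, Cdk1, Aurkb, Ccne1, Aurka, Birc5, Ccnb2, Bub1b and Top2a, and 8 of them belong to the mitotic, checkpoint and spindle groups. The median difference was 0.73 over the members and 0.01 over all genes tested, and 29 of the 33 were above 0. All 3 acetate arrays were above all 3 controls in 18 members, where 21.8% of all genes were, and below in 0, where 19.3% were. Without Th17 acetate replicate 1, 10.4% of all genes were called higher and 7.75% lower. Without Th17 control replicate 3 the numbers were 860 and 513 of 10916 genes. In both fits the members' share of higher calls was no greater than that of all genes. The count of called members depended on single arrays. It was 4 without Th17 acetate replicate 1 (3 higher and 1 lower), Th17 control replicate 1 or Th17 control replicate 2, 2 without Th17 control replicate 3, and 13 without either Th1 control array, which enters only through the shared estimate of spread.

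Bub1, a kinase of the spindle checkpoint, had the smallest p. Its signal was 20.1, 13 and 18.3 in Th17 control replicates 1, 2 and 3 and 106, 70.5 and 54.4 in Th17 acetate replicates 1, 2 and 3. Every acetate array lay above every control array, and the means were 76.9 ± 26.3 (SD, n = 3) against 17.2 ± 3.67. The difference was 1.95 ± 0.37 with an adjusted p of 0.0030 in limma, and 1.71 with an adjusted p of 0.011 without Th17 acetate replicate 1.

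Cdk1, the kinase that cyclins A and B activate, read 145, 127 and 132 in the control arrays and 918, 266 and 334 in the acetate arrays. The groups did not overlap, and replicate 1 was far above the other acetate arrays, so the acetate SD of 358 (mean 506, n = 3) compared with 9.15 in the controls (mean 134). The difference was 1.67 ± 0.42 (adjusted p 0.013 in limma), and 1.13 (0.032) without that array. Bub1 and Cdk1 kept their calls under every setting and left-out array that was run.

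The remaining mitotic calls had the same shape. Aurka, the centrosomal Aurora kinase, read 50.5, 49.9 and 48.8 in controls and 408, 107 and 122 with acetate. Aurkb, the Aurora kinase of the chromosomal passenger complex, read 51.2, 53.6 and 47.9 against 275, 111 and 114. Birc5, or survivin, a member of the same complex, read 133, 134 and 107 against 1143, 250 and 293. In all 3 genes the controls were tightly grouped, acetate replicates 2 and 3 lay together at a higher level, and replicate 1 lay far above both. The differences were 1.76 ± 0.50 (adjusted p 0.026) for Aurka, 1.52 ± 0.39 (0.016) for Aurkb and 1.80 ± 0.53 (0.030) for Birc5. Without replicate 1 they were 1.16 (0.080), 1.10 (0.050) and 1.11 (0.085), and none of the 3 was called.

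Ccnb2, cyclin B2, read 63.3, 61.4 and 55.2 in controls and 375, 124 and 137 with acetate, a difference of 1.58 ± 0.47 (adjusted p 0.031). Bub1b, or BubR1, which inhibits the anaphase-promoting complex until chromosomes are attached, read 45.7, 33.7 and 40.3 against 282, 101 and 65.6, a difference of 1.57 ± 0.48 (0.036). Top2a, the topoisomerase that untangles sister chromatids, read 473, 381 and 473 against 1926, 666 and 687, a difference of 1.12 ± 0.37 (0.047). None of these 3 groups overlapped, and without acetate replicate 1 the differences were 1.08 (0.10), 0.99 (0.11) and 0.62 (0.14).

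**Figure D2:**
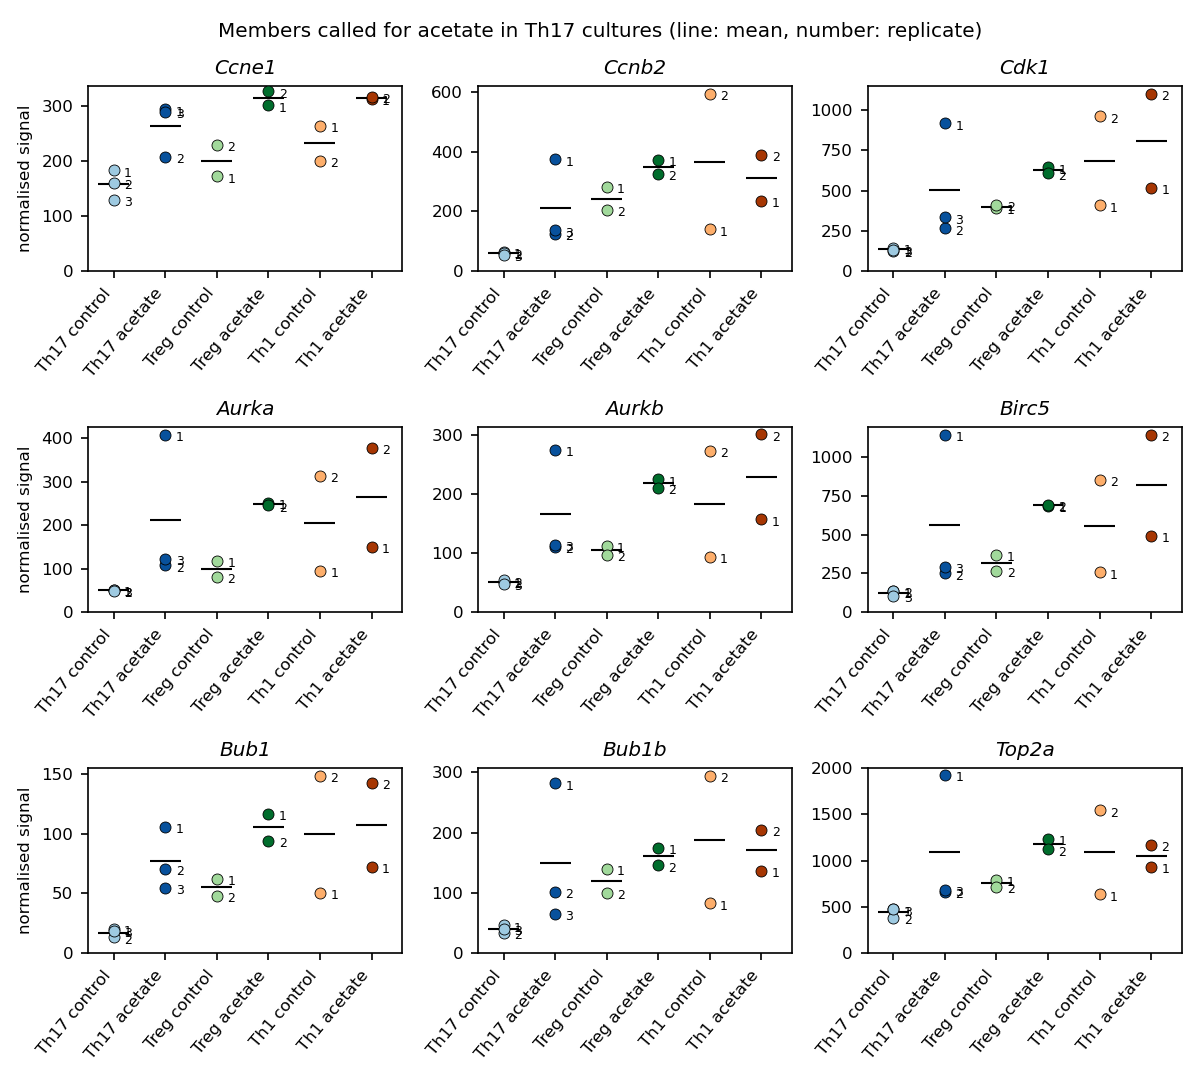
Normalised signal (linear axis from 0) of the 9 members called for acetate in the Th17 cultures, in each of the 14 arrays by group, with the replicate number beside each point and a line at the group mean. The 3 Th17 control points lie below all Th17 acetate points in each panel, and acetate replicate 1 is the highest Th17 point in each.

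Ccne1, cyclin E1, which with Cdk2 carries the cell into S phase, was the called member in which replicate 1 did not stand apart. It read 183, 160 and 130 in controls and 294, 208 and 290 with acetate, so replicates 1 and 3 were alike. The difference was 0.73 ± 0.19 (adjusted p 0.017), and 0.64 (0.049) without replicate 1. E2f1, an activator of S phase genes, read 45.5, 41.8 and 52.5 against 123, 67.4 and 51.5, and the groups overlapped (0.67 ± 0.29, adjusted p 0.13). Ccne2, cyclin E2, differed by 0.02 ± 0.42.

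The licensing and nucleotide members were not called in the Th17 comparison by limma, 0 of 8 and 0 of 5, with 1 and 0 at an unadjusted p under 0.05. Mcm7, a helicase subunit, read 1024, 1187 and 1147 in controls and 1762, 791 and 767 with acetate. Mcm6 read 478, 463 and 542 against 765, 556 and 559, the single licensing member whose groups did not overlap. Pcna, the sliding clamp, read 2736, 2433 and 2641 against 4681, 2339 and 2551, and Rrm2, the regulated subunit of ribonucleotide reductase, 261, 229 and 217 against 932, 137 and 206. In Mcm7 and Rrm2 replicate 1 lay above all controls and replicates 2 and 3 below all of them, and the adjusted p was 0.80 and 0.73.

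The acetate arrays thus divided by role, which the signals of Mcm2 and Cdc6, picked after their values were seen, show most plainly. Mcm2 read 204, 193 and 207 in controls and 209, 71.4 and 104 with acetate. Cdc6 read 48.3, 43.4 and 49.7 against 241, 23.2 and 44.3. Taking each array against the mean of its own controls, the median over the 8 licensing members was 0.80 in replicate 1, −0.42 in replicate 2 and −0.27 in replicate 3. For the 5 nucleotide and clamp members it was 1.65, −0.44 and −0.14, and for the 3 G1 to S members 0.90, 0.41 and 0.14. For the 8 measured G2 and mitosis members it was 2.62, 0.98 and 1.14, for the 5 checkpoint members 2.45, 1.10 and 0.69, and for the other 4 spindle and proliferation members 2.30, 0.64 and 0.74. Replicate 1 was thus high in all of these groups. Replicates 2 and 3 were high in the mitotic groups and slightly below their controls in the licensing and nucleotide groups. In the G1 to S group, which also acts early in the cycle, they were above their controls.

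By counts, Th17 acetate replicate 1 was above all 3 controls in 33 of 33 members, where 40.2% of all genes were above and 37% below. Replicates 2 and 3 were both above all controls in 18 members, against 29.3% of all genes, and both below in 7, against 26.7%. The 18 comprised 7 of 8 G2 and mitosis members, 5 of 5 checkpoint members, 4 of 4 spindle members, Ccne1 and Mcm6. The 7 comprised 4 licensing and 3 nucleotide members. Without replicate 1, 3 members were called higher (Bub1, Cdk1 and Ccne1) and 1 lower (Mcm2, −1.20, adjusted p 0.015), where 10.4% and 7.75% of all genes were. The licensing median was then −0.49, with 7 of 8 below 0, and the nucleotide median −0.32, with 5 of 5 below 0.

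The licensing median was near that of all genes under each scaling. With all arrays it was 0.11 on quantile-normalised values, −0.07 with each array centred on its median and −0.22 on the signals as deposited, where the median of all genes was 0.01, −0.14 and −0.29, so it lay slightly above the all-gene median each time. On the signals as deposited 4.28% of all genes were called higher and 13.4% lower, and 7 members were called higher and 1, Mcm2, lower (−1.13, adjusted p 0.028). The G2 and mitosis median was 1.55, 1.39 and 1.23 under the same 3 scalings, with 8 of 8 above 0 each time.

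**Figure D3:**
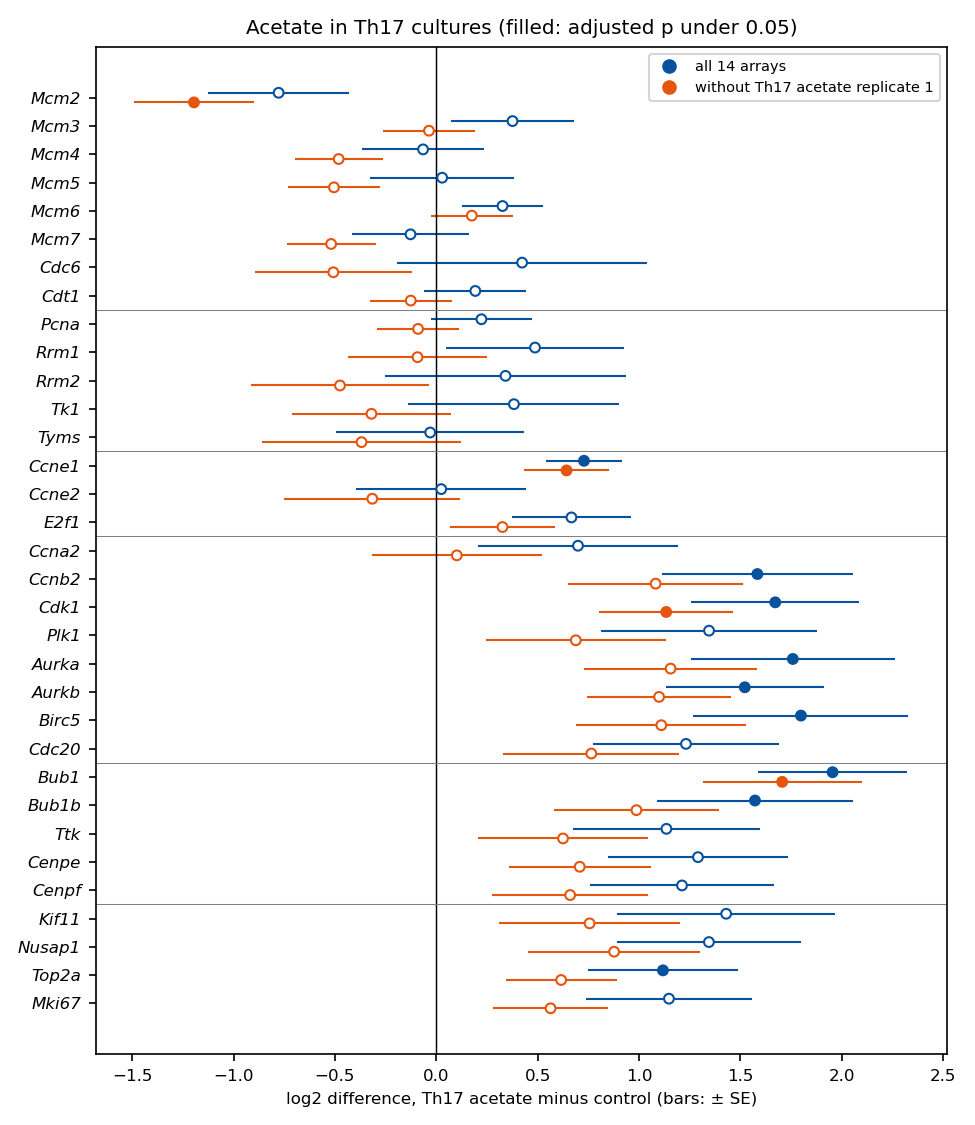
Acetate minus control difference in the Th17 cultures (log2, horizontal axis) for each member, with bars of 1 standard error, from all 14 arrays (blue) and without Th17 acetate replicate 1 (orange), with filled points for an adjusted p under 0.05. Mitotic members from Ccnb2 downwards stay right of 0 in both fits, whereas 7 of the 8 licensing members at the top and all 5 nucleotide members lie left of 0 in the orange fit.

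Among other genes of the cycle, listed apart from the members, 48 of 49 mitosis genes tested were above 0. Of these 22 were called higher with acetate in the Th17 cultures and 0 lower, where 11.7% of all genes were called higher. The count was 11 without Th17 acetate replicate 1, 10 without Th17 control replicate 3, and 14 and 15 on the signals as deposited and with median centring. Ube2c, the ubiquitin-conjugating enzyme of the anaphase-promoting complex, rose by 2.10 ± 0.38 (adjusted p 0.0025), from a mean of 239 to 1087. Cdca3 rose by 2.03, the microtubule depolymerase Kif2c by 1.80 and the spindle assembly factor Tpx2 by 1.79. Of 34 replication initiation and fork genes 4 were called higher, a share close to the 11.7% of all genes, namely Gins2 of the replicative helicase (1.37), the clamp loader subunit Rfc4 (1.05), the licensing inhibitor Gmnn (1.01) and the primase subunit Prim1 (0.84). Without Th17 acetate replicate 1 this list had 2 calls higher and 1 lower, without replicate 3 it had 9 higher, without Th17 control replicate 3 it had 2, and it had 1 on the signals as deposited or with median centring.

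Some genes of the G1 machinery fell in the Th17 cultures. Of 12 genes for G1 cyclins, kinases and pocket proteins 0 were called higher and 3 lower, where 8.66% of all genes were called lower. There were 3 lower calls without Th17 acetate replicate 1, 2 without Th17 acetate replicate 3 or with median centring, and 1 without Th17 acetate replicate 2 or Th17 control replicate 3. Myc, the growth-promoting factor, fell by 0.76 (adjusted p 0.030), the cyclin D partner Cdk6 by 0.75 (0.0031) and its relative Cdk4 by 0.51 (0.017). Of 13 kinase inhibitors and antiproliferative genes 1 was called, Cdkn3, a phosphatase that acts on Cdk2, which rose by 1.76 (0.0028). Among 14 DNA damage genes Blm, a helicase, rose by 1.16 and Atm, a damage kinase, fell by 0.88. Lin54, a subunit of the complex that binds CHR letters, rose by 0.75 (0.011), the single call among 11 E2F and mitotic transcription factors.

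Markers of other cells moved in the same arrays. Signals were summed over the markers of each list that had a probe set. For 2 of 2 CD8 T cell markers the sum was 51.6 to 179 in Th17 control arrays and 180 to 332 in acetate arrays, and Cd8b1 was called higher (1.78). For 7 of 7 macrophage and dendritic cell markers it was 77.3 to 101 against 108 to 206, with Cd68 called higher (2.10). For 5 of 6 B cell markers it was 857 to 1428 against 278 to 795, with Ighm called lower (−1.30). For 3 of 4 NK cell markers it was 823 to 1276 against 311 to 1032, with Eomes called higher (1.40), and for 3 of 5 erythroid and mast cell markers 68.3 to 106 against 22.6 to 36.2, with Kit called lower (−1.57). The CD4 T cell marker sum was 8273 to 9309 in controls and 6022 to 8061 with acetate. No marker was listed at exactly 0. Over all arrays Ighm reached 2699.9 and Cd79b 76.8, whereas the B cell markers Cd79a, Ms4a1 and Pax5 reached 14.8, 9.01 and 16.8. Those 3 were too low to be tested. The brightest NK cell marker was Klrd1 (up to 1666), with Ncr1 up to 9.01. The brightest macrophage and dendritic cell markers were Cd68 (up to 134) and Csf1r (up to 55.3). These sums, here and in the comparisons below, thus rest largely on 1 or a few genes. Numbers of such cells were not tested. The 3′ to 5′ ratio of the Gapdh control probes, a sign of RNA integrity, was 1.08 in Th17 acetate replicate 1, within the 0.986 to 1.23 of all arrays. The same ratio of the actin control probes was 1.21, 1.38 and 1.32 in acetate replicates 1, 2 and 3 and 1.20 to 1.24 in the Th17 controls, so replicates 2 and 3 were above all 3 controls. The part of these markers and ratios in the members' differences was not tested.

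In the Treg cultures most members read higher with acetate, and none was called. Limma called 0 of 33 members, where 7.04% of all genes were called higher and 5.44% lower, and 3 members had an unadjusted p under 0.05. The median difference was 0.47 over the members against 0.03 over all genes, and 28 of 33 were above 0. Both acetate arrays were above both controls in 26 members and below in 2, where 35.1% and 29.6% of all genes were. When either Th1 control array was left out 1 member was called.

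Ccne1 had the smallest p in this comparison. It read 172 and 230 in Treg control replicates 1 and 2 and 301 and 327 in the acetate replicates, without overlap, a difference of 0.65 ± 0.23 (adjusted p 0.086). Mcm6 read 414 and 403 against 623 and 630 (0.61 ± 0.24, 0.12). Aurka read 119 and 81.3 against 251 and 246, a difference of 1.31 ± 0.61 (0.19), and Aurkb 112 and 97.3 against 225 and 211, a difference of 1.04 ± 0.48 (0.18). Birc5 read 370 and 267 against 688 and 691, a difference of 1.13 ± 0.65 (0.30), and Bub1 62.4 and 47.9 against 117 and 93.8, a difference of 0.90 ± 0.45 (0.23). In all 6 genes both acetate arrays were above both controls.

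The other mitotic, checkpoint and spindle members differed by −0.18 to 0.82. Cdk1 read 393 and 409 against 645 and 607 (0.64 ± 0.51, adjusted p 0.47), and Top2a 793 and 716 against 1237 and 1121 (0.64 ± 0.45, 0.40). Ccnb2 read 283 and 204 against 373 and 325, and Bub1b 140 and 100.0 against 175 and 146, differences of 0.53 and 0.42. Cdc20, the activator of the anaphase-promoting complex, was the mitotic member whose arrays overlapped, at 681 and 417 against 481 and 462. Mcm4 and Mcm7 were the 2 members with both acetate arrays below both controls. Mcm7 read 1383 and 1409 against 1326 in both acetate arrays, a difference of −0.07 ± 0.36.

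Of the other lists, Uhrf1, which helps to copy DNA methylation behind the fork, was called higher in the Treg cultures with acetate (1.24), as was Ccnd3, cyclin D3 (1.11, adjusted p 0.0026). Btg2, an antiproliferative gene, was called lower (−1.70, 0.0030). Smc4, a condensin subunit, was called lower (−1.98, 0.0014), from a mean of 2391 to 603, and it was the single call among 49 mitosis genes there.

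Marker sums and a control ratio also differed between the Treg arrays. The B cell sum was 2445 to 2788 in controls and 918 to 1642 with acetate, and the NK cell sum 1393 to 1858 and 805 to 980. The macrophage and dendritic cell sum was 128 to 150 in controls and 212 to 229 with acetate, the CD8 sum 196 to 217 and 260 to 268, the CD4 sum 11580 to 12966 and 7795 to 8875, and the erythroid and mast cell sum overlapped. The Gapdh ratio was 1.22 and 1.23 in controls and 1.02 and 1.03 with acetate. Their part in the members' differences was not tested.

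In the Th1 cultures the members differed more between the replicates of an arm than between the arms. Limma called 0 of 33 members, with 0 at an unadjusted p under 0.05, where 2.07% of all genes were called higher and 1.91% lower. The median difference was 0.16 against 0.03 over all genes, and 23 members were above 0. On the signals as deposited it was 0.48, against 0.23 over all genes, with 31 above 0.

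Cdk1 read 408 and 961 in Th1 control replicates 1 and 2 and 518 and 1102 in the acetate replicates, a difference of 0.27 ± 0.51. Bub1 read 50.6 and 148 against 72.4 and 143, and Birc5 256 and 855 against 493 and 1143. Aurka read 94.5 and 314 against 151 and 378, and Aurkb 93.7 and 273 against 157 and 301. Replicate 2 was the high one in both arms for each of these genes, so the groups overlapped. The same held for Ccnb2 (139 and 594 against 236 and 390), Bub1b (82.3 and 294 against 136 and 205) and Top2a (636 and 1544 against 933 and 1172), where control replicate 2 was the highest of the 4 arrays. Taking each array against the mean of the 2 controls, the median over the members was −0.54 and 0.54 in control replicates 1 and 2 and −0.28 and 0.60 in acetate replicates 1 and 2.

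Ccne1 was the single member without overlap in the Th1 cultures, where 22.1% of all genes had both acetate arrays above both controls and 21% below. It read 265 and 201 against 313 and 317, a difference of 0.45 ± 0.23 (adjusted p 0.28). Among the replication members Mcm7 read 1351 and 1873 against 1093 and 2094, Mcm6 472 and 876 against 580 and 604, Pcna 3152 and 3442 against 2710 and 5127 and Rrm2 444 and 800 against 323 and 1364. The direction of the whole list followed the choice of array. The median was −0.33 with 5 of 33 above 0 without Th1 control replicate 1, and 0.71 with 30 of 33 above 0 without Th1 control replicate 2. Btg2 was called lower (−1.27, adjusted p 0.034), the single call among the other cycle genes. The B cell marker sum was 575 to 739 in Th1 controls and 122 in both acetate arrays, and the CD4 sum 11244 to 11275 and 6524 to 8305. The NK cell sum was 358 to 370 and 393 to 690. The CD8, macrophage and dendritic cell, and erythroid and mast cell sums overlapped. The actin ratio was 1.28 and 1.40 in controls and 1.27 and 1.10 with acetate. The deposited signal of the 18S RNA control probe was 609 and 298 in controls and 879 and 1576 with acetate. Their part was not tested.

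**Figure D4:**
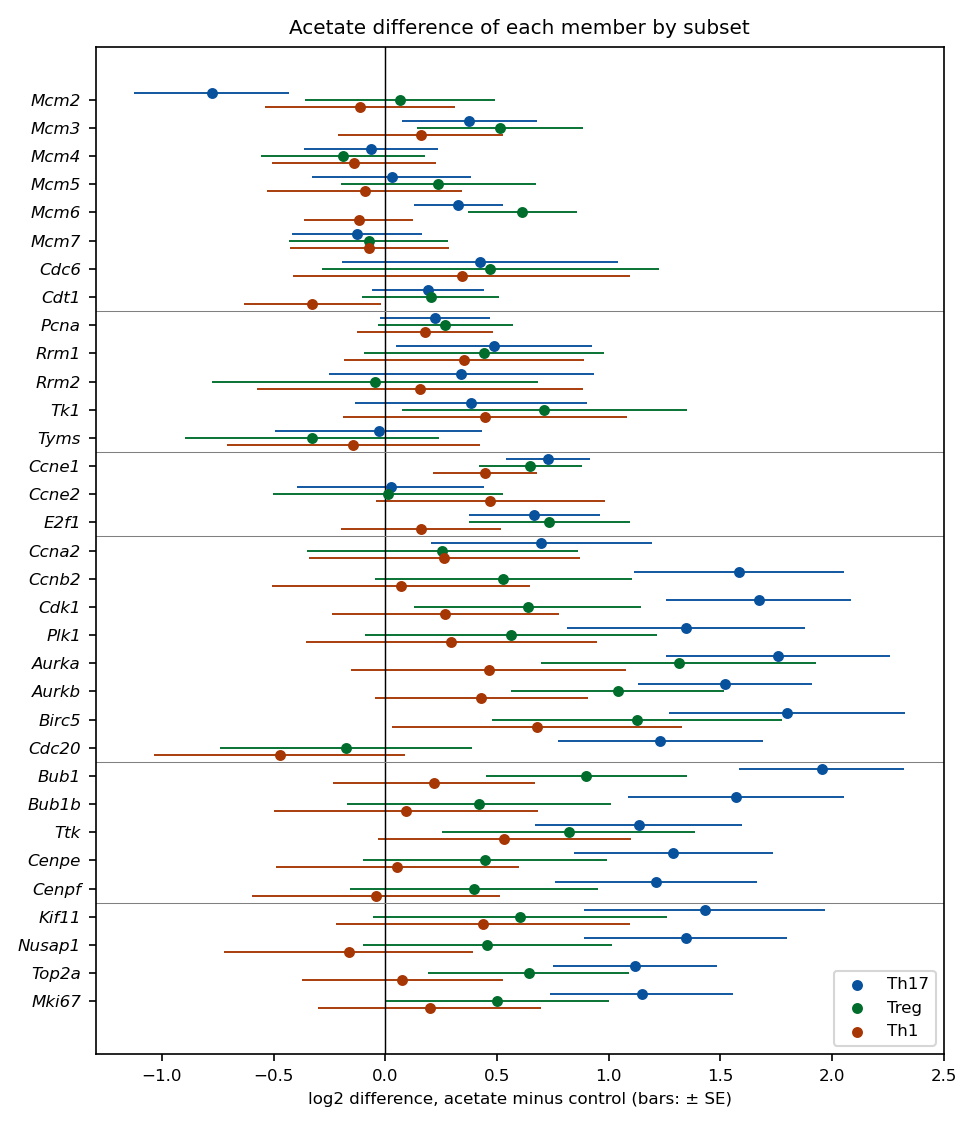
Acetate minus control difference (log2, horizontal axis) of each member in the Th17 (blue), Treg (green) and Th1 (red) cultures, with bars of 1 standard error. From Ccnb2 downwards the blue points lie furthest right and the red points, except that of Cdc20, nearest to 0, and the bars of the 3 subsets overlap for many members.

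Averaged over the 3 subsets with equal weight, acetate raised 6 of 33 members and lowered 0. Among all genes 17.6% were called higher and 14.1% lower, so with all arrays the members' share was close to that of all genes. The smallest p was that of Ccne1 (0.61 ± 0.13, adjusted p 0.0029), whose acetate arrays were above their own controls in all 3 subsets. Bub1 (1.02 ± 0.25, 0.0066), Aurkb (1.00 ± 0.26, 0.011), Aurka (1.18 ± 0.33, 0.017), Birc5 (1.20 ± 0.35, 0.020) and Cdk1 (0.86 ± 0.28, 0.031) followed. The count was 11 without Th17 acetate replicate 3, where 1943 of 10916 genes were called higher and 1579 lower. Leaving out Treg control replicate 2 or either Th1 control array also moved the count. The share of all genes is not given for those fits. The members' median was 0.52 with all arrays, 0.35 without Th1 control replicate 1 and 0.65 without Th1 control replicate 2. Of 13 inhibitors and antiproliferative genes 4 were lower on average, Btg2 by 1.19, Cdkn1b (p27) by 0.98, Btg1 by 0.61 and Ccng1 by 0.52, while Cdkn3 was higher by 0.75. Of the 34 replication fork genes 7 were higher and 0 lower, and of the 49 mitosis genes 12 were higher and 1, Smc4, lower. The 7 became 12 without Th17 acetate replicate 3 or Th1 acetate replicate 1, and the 12 became 32 without Th1 control replicate 2, 21 without Th1 acetate replicate 1, 8 without Th1 control replicate 1 and 7 without Th1 acetate replicate 2.

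No member's acetate difference was shown to depend on the subset. In limma's F test of the difference between the 3 subsets 0 of 33 members were called, where 0.797% of all genes were, and 1 member, Bub1, had an unadjusted p under 0.05 (adjusted p 0.29). The Th17 calls above are therefore not shown to be particular to Th17 cultures. With 2 arrays in each Treg and Th1 group the test had 8 residual degrees of freedom in all.

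Without acetate, the Th17 cultures had the lowest signals of the mitotic members. Against Th1 controls 8 of 33 were called lower and 0 higher, where 3.62% of all genes were called lower and 2.99% higher, and 20 had an unadjusted p under 0.05. The median difference, Th17 minus Th1, was −1.30 over the members and 0.00 over all genes. All Th17 control arrays were below both Th1 control arrays in 29 of 33 members and above in 0, where 23.6% and 20.3% of all genes were. Those 29 took in all 17 measured G2, mitosis, checkpoint and spindle members, all 5 nucleotide and clamp members, 6 of 8 licensing members and Ccne1.

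Bub1 differed by −2.18 ± 0.41 (adjusted p 0.0079), from 20.1, 13 and 18.3 in Th17 controls to 50.6 and 148 in Th1 controls. Cdk1 differed by −2.20 ± 0.46 (0.014) and Ccnb2 by −2.21 ± 0.53 (0.025), with the array values given above. Cdc20 read 190, 132 and 155 against 342 and 1228, a difference of −2.03 ± 0.51 (0.034). The kinetochore motor Cenpe read 30.3, 32.7 and 32.7 against 81.4 and 201 (−1.91 ± 0.50, 0.038), and the spindle protein Nusap1 104, 86.0 and 102 against 177 and 810 (−1.94 ± 0.51, 0.039). The other 2 calls were Cenpf (−1.89) and Aurkb (−1.60). In these genes the Th17 controls were tightly grouped and below both Th1 arrays, which themselves differed from each other by more than the 3 Th17 controls did.

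The calls against Th1 rested on Th1 control replicate 2. Without it 0 members and 0.852% of all genes were called lower, although 31 of 33 were still below 0 with a median of −0.85. Without Th1 control replicate 1 or without Th17 acetate replicate 1 there were 17 lower calls, against 4.7% and 5.07% of all genes, and 2 without any one of the Th17 controls. There were 3 without either Treg acetate array and 4 without either Treg control array, which enter through the shared estimate of spread. On the signals as deposited the all-gene median moved to 0.62 and the members' median to −0.68, with 6 lower calls against 1.09% of all genes. Of 49 other mitosis genes 19 were called lower, among them Ube2c (−2.43), Kif2c (−2.36), Hmmr (−2.18) and Cdca3 (−2.06), with 0 called without Th1 control replicate 2, 2 without Th17 control replicate 3, 36 without Th1 control replicate 1, 35 without Th17 acetate replicate 1, and 8 on the signals as deposited or with median centring. Cdkn3 (−2.29) and the p18 inhibitor Cdkn2c (−1.76) were also lower, and Gadd45b, a growth arrest gene, was higher (1.81).

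Markers of other cells and control probes differed between the same arrays. The sum of the CD8 T cell markers was 51.6 to 179 in Th17 controls and 36.6 to 62.6 in Th1 controls, with Cd8a called higher (2.23). That of the macrophage and dendritic cell markers was 77.3 to 101 against 125 to 188, with Cd68 called lower (−1.88), and that of the NK cell markers 823 to 1276 against 358 to 370, with Klrd1 called higher and Eomes lower. The CD4 sum was 8273 to 9309 against 11244 to 11275. The B cell sum was 857 to 1428 against 575 to 739, and the erythroid and mast cell sum 68.3 to 106 against 11.6 to 27.5, with Kit called higher (3.11). The deposited signal of the 18S RNA control probe was 2809 to 4149 in all Th17 arrays and 298 to 1576 in all Th1 arrays. The actin ratio was 1.20 to 1.24 in Th17 controls and 1.28 and 1.40 in Th1 controls, without overlap. Their part in the members' differences was not tested.

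Against Treg controls the Th17 controls were lower in 4 members, Bub1 (−1.53), Ccnb2 (−1.95), Cdc20 (−1.74) and Cdk1 (−1.56), at adjusted p-values of 0.029, 0.029, 0.045 and 0.047, where 6.01% of all genes were called lower and 5.31% higher. This comparison shares the Th17 control arrays with the one before. All Th17 controls were below both Treg controls in 25 members, against 27.9% of all genes, and above in 3, Mcm2, Mcm3 and Mcm6. The 4 calls were lost without any one of the 5 control arrays, and 8 members were called lower without Th17 acetate replicate 1, where 7.33% of all genes were. The number of calls also changed without either Th1 control array or either Treg acetate array, which enter only through the shared estimate of spread. The share of all genes is not given for those fits. In the same arrays the B cell marker sum was 857 to 1428 in Th17 and 2445 to 2788 in Treg controls, that of the macrophage and dendritic cell markers 77.3 to 101 and 128 to 150, the CD8 sum 51.6 to 179 and 196 to 217, and the CD4 sum 8273 to 9309 and 11580 to 12966. The NK cell sum was 823 to 1276 and 1393 to 1858, with Eomes called lower (−4.75). The Gapdh ratio was 0.986 to 1.07 and 1.22 to 1.23, and the actin ratio 1.20 to 1.24 and 1.33 to 1.42. Their part was not tested. The cyclin D partner Cdk6 was higher in the Th17 controls (1.51), as were Ccnd3 (0.86) and Ccnd2 (0.50).

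No member was called between untreated Treg and Th1 cultures. Limma called 0 of 33, with 1 at an unadjusted p under 0.05, where 2.85% of all genes were called higher and 2.14% lower. The Treg minus Th1 difference was below 0 in all 33 members, with a median of −0.41, and without Th1 control replicate 2 it was above 0 in 18 with a median of 0.05. Both Treg controls were below both Th1 controls in 11 members, 7 of them licensing members and 4 nucleotide members, where 25.4% of all genes were.

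**Figure D5:**
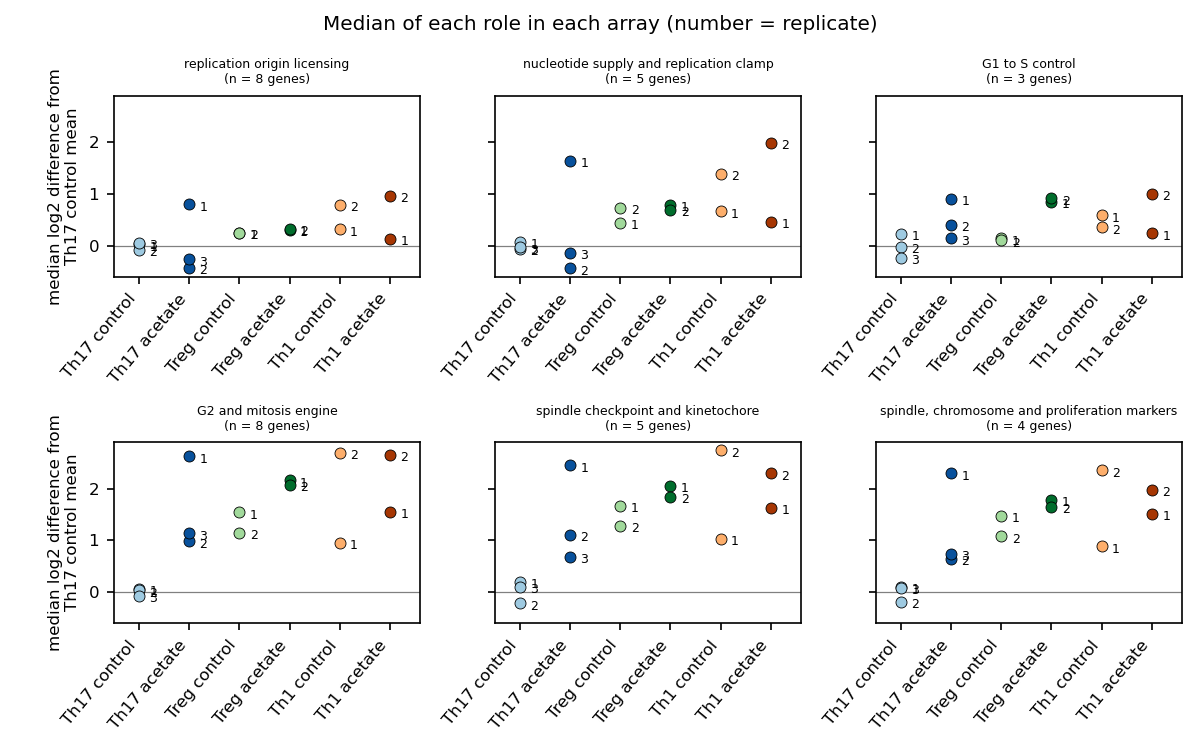
Median over the members of each role, per array, of the log2 difference from the mean of the Th17 controls, by group, with the replicate number beside each point. In the 3 lower, mitotic panels the Th17 controls lie near 0 and the other arrays between 0.64 and 2.74, and in the upper licensing panel Th17 acetate replicates 2 and 3 lie below 0.

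The arrays were also set on one scale. Against the mean of the Th17 controls, the G2 and mitosis median was 1.54 and 1.14 in Treg controls 1 and 2, 2.16 and 2.07 in Treg acetate 1 and 2, 0.96 and 2.69 in Th1 controls 1 and 2, and 1.56 and 2.65 in Th1 acetate 1 and 2. Th17 acetate replicates 2 and 3, at 0.98 and 1.14, were level with Th1 control replicate 1 and Treg control replicate 2, and Th17 acetate replicate 1, at 2.62, was level with the replicates 2 of both Th1 groups. For licensing the range was narrower, from −0.42 in Th17 acetate replicate 2 to 0.96 in Th1 acetate replicate 2.

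Most members were read by more than 1 probe set, 75 in all for the 33 members, with 24 members having several. Of the 27 other probe sets above the filter, 25 had the same sign as the chosen one for acetate in the Th17 cultures, 20 in the Treg and 20 in the Th1 cultures, and 26 for untreated Th17 against Th1.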

How the data were processed

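RNA of 14 CD4+ T cell cultures was hybridised to Affymetrix arrays, and the authors deposited a linear signal intensity for each probe set and array, from MAS5 per the submitters' processing notes, which give no version. Arrays were grouped by their labels. Probe sets with 1 symbol in the platform annotation were used. Signals were transformed as log2(signal + 3), which understates differences of low genes, and quantile normalised. For each gene the brightest probe set on average was taken, and the test covered genes whose mean reached the 40th percentile (log2 3.60, a signal of about 9.11). Detection above background was not assessed, and precision is limited by the number of arrays. The 14 arrays entered 1 limma 3.58.1 fit (R 4.3.3) of 6 group means, with eBayes, a trend and 8 residual degrees of freedom. An array left alone in its group is assumed to vary like the others. The fit was tested on simulated data. Alternatives were the signals as deposited, median centring, other pseudocounts and filters, the mean of probe sets, a replicate block and leaving out each array.

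The 34 members and the other lists were chosen with earlier results of these data known. Array values are given for members called for acetate, and for up to 2 members with the highest mean signal in each role without such a call. For untreated comparisons up to 6 called members are given by smallest p, and of each other list up to 4 called genes per direction by largest difference. Deviations of same-numbered arrays correlated at 0.15, 0.16 and −0.06 (Th17), 0.06 (Treg) and −0.16 (Th1). Th17 control replicate 1 with acetate replicate 2 gave −0.19, and control replicate 2 with acetate replicate 1 gave −0.17. With 2 arrays per group the Treg and Th1 values for different numbers are the same with the opposite sign. Replicate numbers were not taken as pairs, and these values do not settle whether they are. Some genes of the other lists are not reported here.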

Additional observations from a re-analysis of the deposited data

Results flagged for a closer look

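Among the other cell cycle genes, limma's F test called the acetate difference of 3 genes different between the 3 subsets. Ccnd3 had an adjusted p of 0.0292, with a mean signal of 805 in Th17 controls and 702 with acetate, 441 and 959 in Treg cultures, and 1272 and 997 in Th1 cultures. Cdk6 had an adjusted p of 0.0359, from 2053 to 1222 in Th17, from 718 to 1056 in Treg and from 1602 to 1068 in Th1 cultures. Both genes were thus higher with acetate in Treg cultures and lower in the other two. Smc4 had an adjusted p of 0.0359, from 407 to 492 in Th17 cultures, from 2391 to 603 in Treg cultures and from 727 to 633 in Th1 cultures.

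For 5 more genes every acetate array lay on one side of its controls in one subset and on the opposite side in another, and the F test did not call them. Cdk4 differed by −0.5062 in Th17 and −0.2268 in Th1 cultures, and by 0.091 in Treg cultures. Cdkn1a (p21) differed by 0.3024 in Treg and −0.888 in Th1 cultures, and Timeless by 0.3113 and −0.404. Cenpa, the centromeric histone, differed by 1.6759 in Th17 and −0.5468 in Treg cultures, and the phosphatase Cdc25b by 0.6916 and −0.5386. Their adjusted p in the F test ranged from 0.18 for Cenpa to 0.63 for Timeless, so these differences between subsets are not shown.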

How the results depend on the processing

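Over 27 pairs of a member and a comparison in which it was called, the direction was kept under every alternative run. The call was kept in 185 and lost in 34 cases under other settings, and kept in 265 and lost in 113 when an array was left out. Over the 14 fits without 1 array the number of members called was 2 to 13 for acetate in Th17, 0 to 1 in Treg, 0 in Th1, 3 to 17 for the mean effect, 0 for the difference between subsets, 0 to 17 for untreated Th17 against Th1, 0 to 8 for Th17 against Treg and 0 to 1 for Treg against Th1. With the replicate number as a block 16 members were called for acetate in Th17 and 13 for the mean effect, and 0 in Treg, in Th1 and for the difference between subsets. With the Th1 numbers crossed, a choice made after seeing the data, the counts were 10 and 8, and 0 in the other 3. The share of all genes called in the fits with a block is not given here. These counts therefore do not compare the members with all genes. For untreated Th17 against Th1, 3 members were called with median centring and 4 with the mean of probe sets. For untreated Th17 against Treg, 1 was called on signals as deposited, 2 with median centring, 2 with no filter and 1 with the mean of probe sets. The causes were not tested. No paired analysis was made for the untreated subsets, because the labels do not say whether replicate numbers pair arrays of different subsets. Leaving out Th17 acetate replicate 1 or Th1 control replicate 2 for the other lists was also chosen after seeing the data. Among the members the lowest mean signals over all arrays were those of Tyms and Ccne2, at 17.2 and 23.9.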
